A study of Mus musculus with 2 samples.

Results

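Il10, Il24, Il16, Il2, Il3, Il6, Csf1, Csf2, Lif and Areg encode cytokines that helper T cells can secrete beside the cytokines that name their lineage. These 10 genes were picked by name, and a probe was taken for one of them if the RefSeq accession in the scanner output belonged to it. Probes were found for 9 of the 10, of 18434 named genes on the array, and Lif was not analysed here. The 9 genes were read by 11 probes and 56 spots per array.

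The cells were splenic CD4 T cells of the inbred mouse strain C57BL/6, with a purity above 98% and no genetic change named for either group. Stimulation of the T cell receptor together with CD28 lasted 2 days, and the cells then grew for 3 more days. The Th9 group received IL-4 (10 ng/ml), TGFbeta (3 ng/ml) and an antibody that neutralises IFNgamma (1 µg/ml), conditions that favour IL-9-secreting cells. The Th9+IFNgamma group received less IL-4 (3 ng/ml), the same TGFbeta (3 ng/ml) and added IFNgamma (10 ng/ml), with no antibody listed. The groups therefore differ in the IL-4 dose and in the antibody as well as in IFNgamma, and these cannot be told apart. Each group is 1 single-colour array, the labels give no number of mice or cultures behind it, and no difference below has a replicate or a test.

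IL-10 restrains inflammation and is made by many helper T cell types late in their response. IL-24 and IL-19 belong to the same structural family and signal mainly to epithelial cells. IL-2 drives T cell growth, IL-3 and GM-CSF (the product of Csf2) act on myeloid cells through a shared receptor chain, and M-CSF (the product of Csf1) sustains macrophages. IL-16 attracts CD4-bearing cells, IL-6 and LIF signal through the shared receptor chain gp130, and amphiregulin (Areg) is a growth factor of the EGF family.

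Signals below are scaled signals, which are fluorescence intensities after each array was brought to the same 75th percentile. They compare 1 probe between the arrays and do not rank genes by abundance. A gene counts as measured when its probe was flagged well above background on both arrays, a level reached from a scaled signal of 11.1 with IFNgamma and 12.6 without. Of 18434 genes, 12272 (66.6%) were measured, with a median log2 difference of -0.01 (Th9+IFNgamma minus Th9). Scaling the arrays by their median in place of the 75th percentile moves it to 0.11, so differences of that size have no settled direction. All 10 T cell markers with a probe were measured, among them Cd3e (scaled signals of 1789 with IFNgamma and 1544 without) and Cd4 (502 and 444). Of the 10, 8 were higher with IFNgamma and 2 lower, with a median log2 difference of 0.31. Only Cd247 reached 2-fold, at 2.13-fold higher by its brightest probe (11035 against 5174), while its other probes gave 1.98-fold and 1.14-fold.

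Of the 9 cytokine genes, 5 were measured on both arrays, 1 (Csf2) was above background on the Th9+IFNgamma array alone, and 3 (Il2, Il6 and Areg) on neither. Among the 5 measured genes, Il10, Il24 and Csf1 had at least 2-fold lower signals in Th9+IFNgamma, while Il3 and Il16 lay within 2-fold. The share of all measured genes past the same limit was 7.42% on the lower side (910 genes) and 5.15% on the higher side (632 genes), or 776 and 772 genes with median scaling. All 3 lower genes were also past 3.5-fold, a limit set after their values were seen, as were 2.95% of all measured genes. The median log2 difference of the 5 was -2.00. In bulk RNA, fewer cells expressing a gene and less RNA per cell cannot be told apart.

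**Figure D1:**
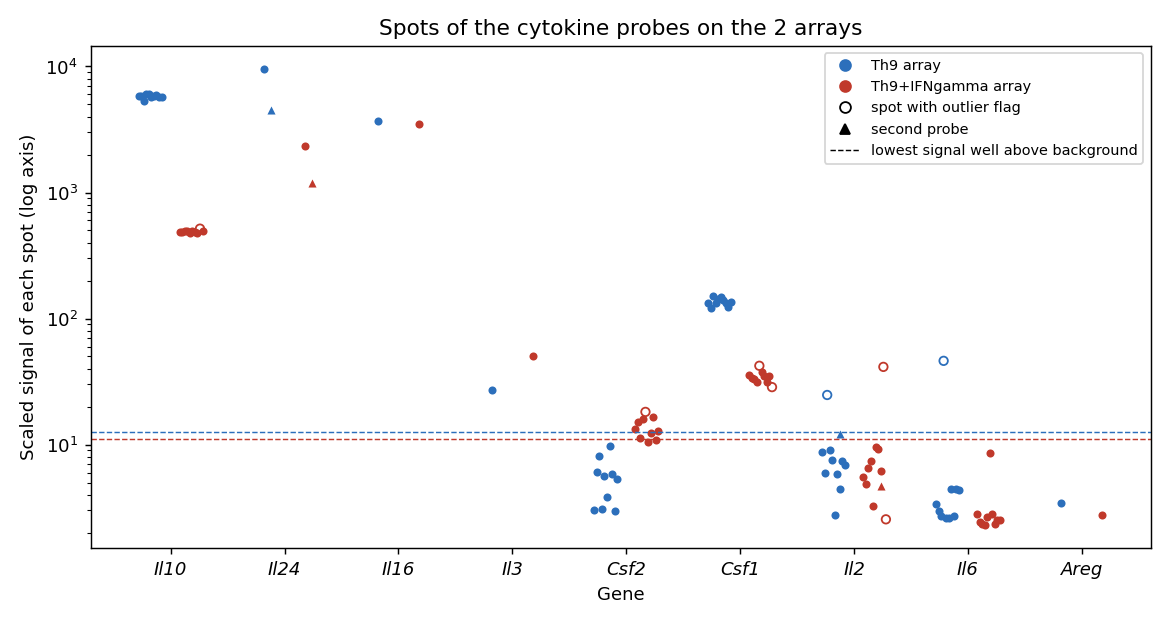
Scaled signal (log axis) of every spot of the cytokine probes, with Th9 in blue and Th9+IFNgamma in red, spots with an outlier flag as open circles, a second probe as triangles and dashed lines at each array's detection level. The Il10 and Csf1 spots form separate bands with Th9 on top, and the Il2 and Il6 spots without an outlier flag lie below the lines on both arrays.

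Il10, the anti-inflammatory member, showed the largest difference of the group. Its probe was printed 10 times on each array. On the Th9 array the spots read 5306 at the lowest, 5827 at the median and 6076 at the highest, with an SD of 213. On the Th9+IFNgamma array 9 spots without an outlier flag read between 476 and 499, with a median of 485 and an SD of 8.57, and the flagged spot read 517. Every Th9 spot was therefore more than 10 times as bright as any spot of the other array. The difference was 11.9-fold, or -3.57 on the log2 scale with an error of 0.20 from the extraction software. Spots of 1 probe repeat printing and scanning only, and they carry nothing of the variation between cultures. Only 49 of 12272 measured genes, or 0.399%, were as far or farther on the lower side, Il10 included. With IFNgamma all 10 spots were still well above background.

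With 2 arrays, likeness to Il10 comes down to 1 number per gene, the log2 difference. The 5 genes nearest to Il10 by that number were Esm1 (-3.58), Fndc3c1 (-3.58), Gipr (-3.59), Slc26a10 (-3.54) and Plk2 (-3.54). Esm1, which encodes the secreted proteoglycan endocan, read 247 against 2956. Fndc3c1 was close to background with IFNgamma, at 11.8 against 141. In the alternative called normexp here, another background correction was run on the median spot signals and an offset of 50 was added, which by itself narrows the differences of dim probes. The parts of the correction, the offset and the signal column were not separated. With normexp the log2 differences were -3.07 for Esm1, -1.57 for Fndc3c1, -2.44 for Gipr, -2.38 for Slc26a10 and -2.66 for Plk2, against -3.32 for Il10, so the nearness of these genes to Il10 depends on the processing. None of the 5 is a cytokine gene.

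Il24 was read by a pair of probes with 1 spot each. The brighter probe read 2346 with IFNgamma and 9593 without, and the other 1182 and 4546. Both probes put Th9 higher by about the same ratio, 4.09-fold and 3.84-fold, with a software error of 0.20 on each log2 difference. The Il24 difference was smaller than that of Il10, and the signal with IFNgamma stayed far above background.

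Il19, the third measured gene of the IL-10 family, read 19.2 with IFNgamma and 76.4 without. This 3.97-fold difference lies near background, and with normexp it was 1.79-fold. Il22, an IL-10 relative made by Th17 and Th22 cells, reached a detectable level without IFNgamma only (23.1), and its other probe did so on neither array. The bound is at least 2.08-fold lower in Th9+IFNgamma, or at least 1.39-fold with normexp. Of the 484 genes seen on the Th9 array alone, 46.9% had a bound of at least 2-fold. Neither array showed Il20 or Ifnl3 above background. The family's 3 measured genes, Il10, Il24 and Il19, all lay past 2-fold on the lower side (median -2.03), where 7.42% of all measured genes lay. With normexp Il19 no longer did.

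**Figure D2:**
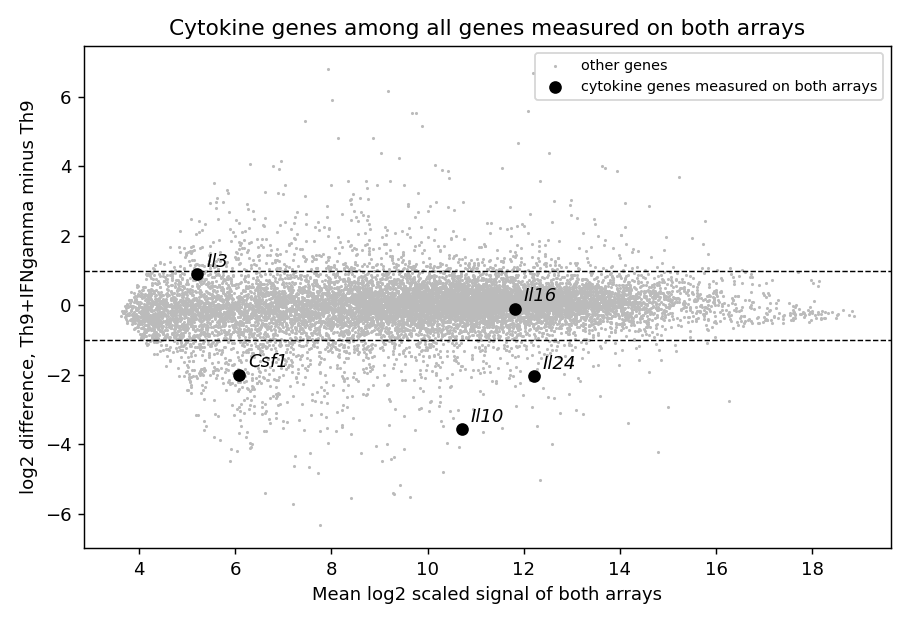
log2 difference (Th9+IFNgamma minus Th9) against the mean log2 scaled signal for the 12272 measured genes in grey, with the 5 measured cytokine genes in black and dashed lines at 2-fold. Il10 and Il24 lie below the cloud at high signal, Csf1 and Il3 lie at low signal where the cloud is wider, and Il16 lies within it.

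Csf1, which encodes the macrophage growth factor M-CSF, was dim on both arrays. Its 10 Th9 spots read from 122 to 151, with a median of 134 and an SD of 9.45. With IFNgamma, 8 spots without an outlier flag read from 31.2 to 38.0, with a median of 34.2 and an SD of 2.28, and the flagged spots read 28.6 and 42.2. The spots of the arrays did not overlap, with or without the flagged ones. Lack of overlap is common at this precision, since it held for 75% of the 144 probes that were printed 10 times and measured on both arrays. Csf1 was 3.99-fold lower in Th9+IFNgamma (log2 difference -2.00, software error 0.23). The raw brightness before background removal was 99.3 against 194 at the median, over a local background of 51.0 and 49.8. With normexp and its offset it was 2.16-fold, still past 2-fold.

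Il3 and Csf2, growth factors for myeloid cells, lay on the other side, close to background. Il3 had 1 spot per array, at 50.5 with IFNgamma and 27.1 without. It was 1.86-fold higher in Th9+IFNgamma, a log2 difference of 0.90 with a software error of 0.25. For probes this dim, the log2 difference of a single spot between the arrays scattered around the probe mean with an SD of 0.29. With normexp the difference was 0.24, and with median scaling it was 1.01.

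Csf2 was well above background in 6 of its 9 spots without an outlier flag in Th9+IFNgamma and in 0 of 10 in Th9. The spots read from 10.5 to 16.6 with IFNgamma (median 12.8) and from 2.99 to 9.76 without (median 5.50). The arrays did not overlap here either, which held for 73.8% of the 160 probes printed 10 times that were above background on at least 1 array. Since the lowest level that can be read on the Th9 array is itself 12.6, the bound on the difference is at least 1.04-fold, and no size can be given. Of 471 genes detected on the Th9+IFNgamma array alone, 33.8% had a bound of at least 2-fold, and Csf2 was not among them.

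The promoters of Csf1, which was lower with IFNgamma, and of the neighbours Csf2 and Il3 are shown to let their proximal sequence be compared. Each line gives the 250 bases before the start of the gene, from the RefSeq promoter table (GRCm38.p6, minus strand for all of them), which held 8 of the 10 genes and not Il10 or Il24. The windows are chr3:107760470-107760719 for Csf1, chr11:54249900-54250149 for Csf2 and chr11:54267280-54267529 for Il3. Capitals mark matches on either strand to GGAAA, the core bound by NFAT factors, and to an NF-kB type element (GGG, any 2 bases, then TTTCC), which holds the same core on the other strand.
Csf1: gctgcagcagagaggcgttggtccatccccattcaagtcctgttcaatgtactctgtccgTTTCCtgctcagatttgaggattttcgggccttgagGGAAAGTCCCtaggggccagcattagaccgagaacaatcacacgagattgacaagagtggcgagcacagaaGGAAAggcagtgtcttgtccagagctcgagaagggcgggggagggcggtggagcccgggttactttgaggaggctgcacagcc
Csf2: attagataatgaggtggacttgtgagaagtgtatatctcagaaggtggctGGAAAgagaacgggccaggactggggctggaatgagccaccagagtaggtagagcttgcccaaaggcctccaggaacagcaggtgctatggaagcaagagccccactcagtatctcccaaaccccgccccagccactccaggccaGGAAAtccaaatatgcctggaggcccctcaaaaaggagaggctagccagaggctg
Il3: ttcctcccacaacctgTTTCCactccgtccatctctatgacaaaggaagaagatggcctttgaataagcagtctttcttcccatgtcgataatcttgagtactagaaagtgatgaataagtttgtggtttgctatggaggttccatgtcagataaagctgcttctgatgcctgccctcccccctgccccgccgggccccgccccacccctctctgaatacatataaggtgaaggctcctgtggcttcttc
The Csf1 window held 3 matches to GGAAA, Csf2 held 2 and Il3 held 1, letters found in 55.6% of 32851 promoter windows of this length. The match from 154 to 145 bases upstream in Csf1 was also the NF-kB type element, found in 1.41% of windows. Among the other members, Il6 and 1 of the 3 windows of Il16 held that element too. The AP-1 letters TGANTCA (6.75% of windows), a STAT6 type element (TTC, any 4 bases, then GAA, 5.85%) and the TATA letters TATAAA (12.4%) were in none of the 3 windows shown. These are matches of letters and show no binding.

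Il16, whose precursor T cells store constitutively, was nearly level. Its 1 spot per array read 3491 with IFNgamma and 3727 without, a log2 difference of -0.09 with a software error of 0.20. The difference is smaller than that error, and it ranged from -0.15 to 0.02 over the 11 alternative ways of processing.

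Il2, Il6 and Areg gave no usable level on either array. The Il2 probe printed 10 times read a median of 6.33 with IFNgamma and 6.84 without, over spots from 2.78 to 9.65 on both arrays together, and its other probe read 4.67 and 12.1. Outlier-flagged spots of 41.4 with IFNgamma and 24.7 without were the brightest readings of Il2. None of the spots without an outlier flag was well above background, so Il2 RNA was not detectable in either culture at harvest. Il6 behaved alike, with medians of 2.51 and 2.99 and 1 flagged spot of 46.2 on the Th9 array. The single Areg spot read 2.75 and 3.42, values as small as the software error attached to them (2.74 and 3.41). Over all named genes, 28.2% were well above background on neither array.

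**Figure D3:**
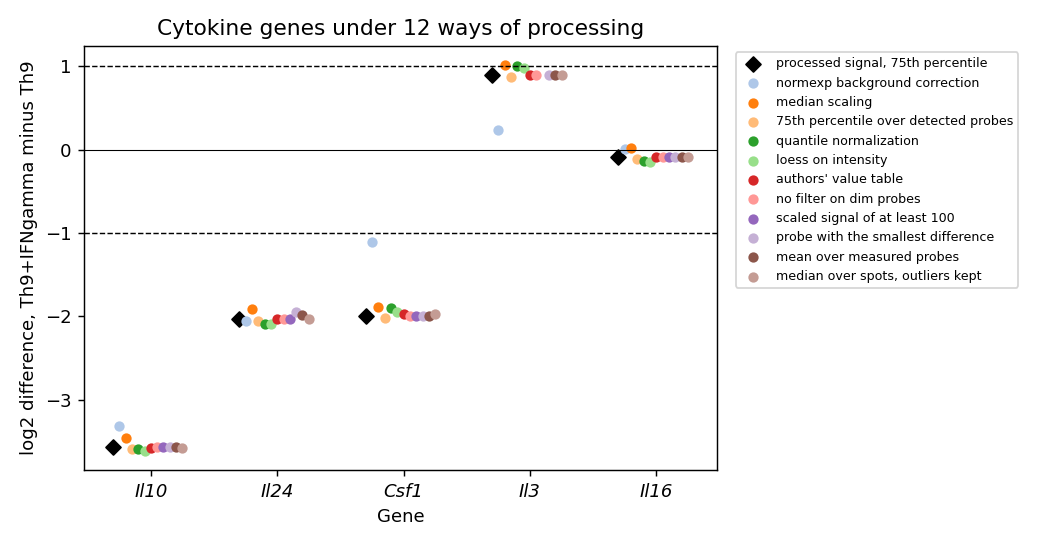
log2 difference (Th9+IFNgamma minus Th9) of the 5 measured cytokine genes under the reported processing (black diamonds) and 11 alternatives (coloured points), with dashed lines at 2-fold. Il10, Il24 and Csf1 stay below -1 in every setting, and normexp with its offset of 50 moves the dim genes Csf1 and Il3 the most.

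Il10 and Il24 lie in 1 cytokine gene cluster with Il19 and Il20, and Il3 lies next to Csf2 in another. In the order of the RefSeq gene table, the Il10 cluster with up to 5 gene records on each side held 10 protein-coding genes, of which 7 were measured. The stretch was chosen around Il10 and Il24, which are 2 of the 7. Of the other 5, 3 were at least 2-fold lower with IFNgamma (against 7.42% of all measured genes), and with normexp only Dyrk3 was. Beside Il19 these were Fcmr, the receptor for IgM Fc (1567 against 3165, 2.02-fold), and Dyrk3, a protein kinase (235 against 698, 2.97-fold). Fcmr was just past the limit, and inside it with normexp (-0.92). Pigr, which encodes the polymeric immunoglobulin receptor, was seen without IFNgamma only, with a bound of at least 4.88-fold, or 1.72-fold with normexp. Mapkapk2, the kinase gene directly after Il10, was 1.68-fold lower, and Eif2d, a translation factor farther along, was level at 2532 and 2449. Fcamr, at the other end, was below detection.

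Around Il3 and Csf2 fewer genes could be read. Acsl6, a fatty acid activating enzyme and the next coding gene after Il3, was 4.68-fold higher with IFNgamma (533 against 114), and a second probe gave a log2 difference of 1.26. Meikin was below detection. Of this stretch only Il3 and Acsl6 were measured, so it gives no count to set beside that of the Il10 stretch.

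**Figure D4:**
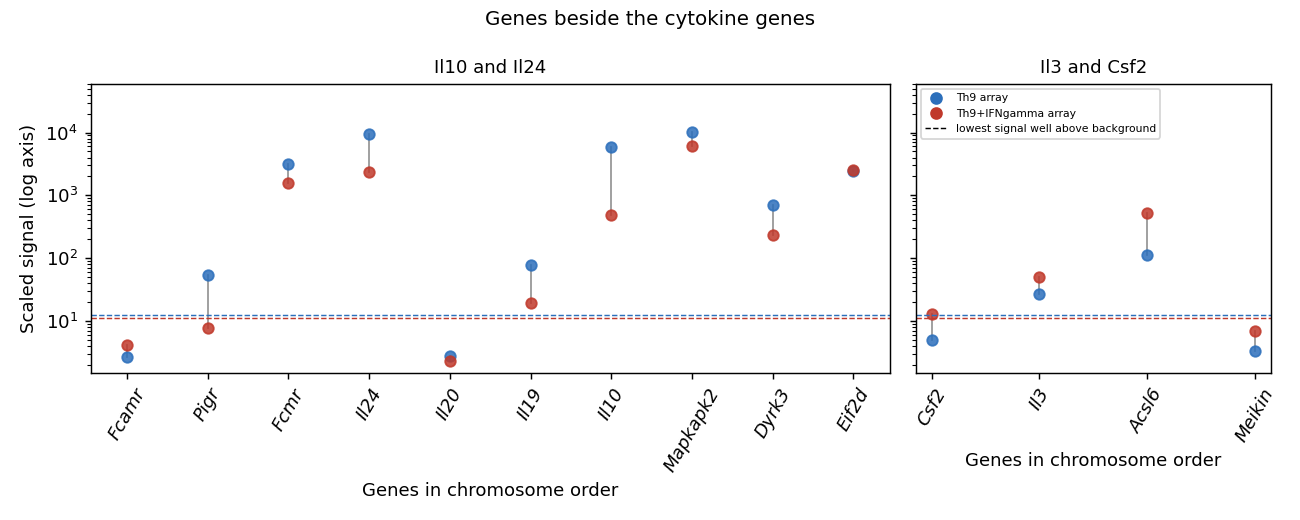
Scaled signal (log axis) of protein-coding genes in chromosome order around Il10 and Il24 (left) and Il3 and Csf2 (right), Th9 in blue and Th9+IFNgamma in red, dashed lines at each array's detection level. On the left the Th9 points of Pigr, Fcmr, Il24, Il19, Il10, Mapkapk2 and Dyrk3 lie above those of Th9+IFNgamma, and on the right those of Csf2, Il3 and Acsl6 lie below.

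Receptors for the cytokines were mostly level. Among 17 measured receptor genes, Il2rg was past 2-fold on the higher side and Il6ra and Egfr on the lower. Their median was 0.02, and over all measured genes 12.6% were that far apart in either direction. Both chains of the IL-10 receptor were well measured, Il10ra at 7977 against 6665 and Il10rb at 8593 against 6463. Neither reached 2-fold.

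Among the IL-2 receptor chains, Il2rg, the common gamma chain, was 2.20-fold higher with IFNgamma (8315 against 3787). Il2rb was 1.43-fold higher. Il2ra was level by its brighter probe (2817 against 2774) and had -0.36 by the other. The cells thus carried transcripts of all 3 chains while their own Il2 was not detected.

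Il6ra, the IL-6 receptor, was 2.14-fold lower with IFNgamma by its brighter probe and 2.23-fold lower by the other, and median scaling brought the first to just inside 2-fold (-0.98). Its signalling partner Il6st (gp130) was within 2-fold at 1149 against 1465. Lifr was dim at 28.2 against 37.1, and another of its probes, detected on the Th9+IFNgamma array alone, read 53.1 there, so its direction is not settled.

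The GM-CSF and IL-3 receptor chains Csf2ra (1.32-fold higher), Il3ra (1.28-fold lower) and Csf2rb (1.06-fold higher) lay within 2-fold. Csf2rb has a near-identical copy, Csf2rb2, and the probes may not separate them. The M-CSF receptor Csf1r was equally dim on both arrays, at 34.1 and 34.3. Of the IL-24 receptor, Il20rb was 1.49-fold lower, and Il20ra was above background without IFNgamma only, with a bound of at least 2.99-fold (1.62-fold with normexp). Egfr, the receptor of amphiregulin, read 17.3 against 53.4, a 3.09-fold difference that was 1.52-fold with normexp.

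Relatives of the undetected members were a mixed picture. In the IL-6 family all 7 measured genes lay within 2-fold, with a median of -0.01, while 12.6% of all measured genes lay outside it. Osm, which encodes oncostatin M, read 2934 against 2414, and Ebi3, a subunit of IL-27 and IL-35, 4831 against 6737. In the EGF family, Hbegf was level (554 against 496), while Epgn (50.7 against 133) and Nrg4 (18.9 against 46.1) were 2.61-fold and 2.44-fold lower with IFNgamma. Both were dim, and with normexp neither reached 2-fold. Like Areg, the related Ereg, Btc and Tgfa were below detection. Of the 7 measured genes for proteases and cofactors that release such membrane growth factors, only Rhbdf1 reached 2-fold (2.01-fold lower, 23.4 against 47.0, and 1.37-fold with normexp). Adam17, the main sheddase of amphiregulin, was level.

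Among 21 transcription factor genes with a described action on Il10 in T cells, all were measured. With IFNgamma 6 of them were past 2-fold on the lower side and 3 on the higher side, where the shares of all measured genes are 7.42% and 5.15%, and the median was -0.31. Ahr, the ligand-activated aryl hydrocarbon receptor, was 12.6-fold lower (641 against 8055), and Egr2 was 8.15-fold lower (104 against 851, and 5.32-fold with normexp). Maf, a direct activator of Il10, was 3.84-fold lower by its brighter probe and 3.95-fold lower by the other. Batf was 3.39-fold lower and Rbpj, the nuclear partner of Notch, 2.34-fold lower. Junb was 2.11-fold lower by its brighter probe and 1.99-fold lower, just inside the limit, by the other. It was past 2-fold in 8 of the 11 alternatives, with a log2 difference of -0.99 under normexp.

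Other activators of Il10 were within 2-fold, some narrowly. Prdm1, which encodes Blimp-1, was dim and level at 113 against 123. Stat3 and Gata3 lay within 2-fold at 1.40-fold and 1.24-fold lower, and Nfil3 was just inside at 1.96-fold lower, and past 2-fold in 3 of the 11 alternatives (-1.05 with normexp). The genes higher with IFNgamma were Tbx21, which encodes T-bet (36.1-fold), Jun (4.79-fold) and Stat4, the mediator of IL-12 signals (2.56-fold).

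Genes that link T cell activation to Il2 and Csf2 were also read, since both cytokines were at or below background. Among 17 measured, 4 lay past 2-fold on the lower side and 2 on the higher side, against 7.42% and 5.15% of all measured genes. The median of the 17 was 0.03. Fosl2, an AP-1 subunit, was 9.78-fold lower (51.6 against 505, and 4.32-fold with normexp) and Crem, a known repressor of Il2, 7.40-fold lower. Crem had 6 probes, all lower with IFNgamma, with a dim one at -0.77. Cd69, an early activation marker, was 5.06-fold higher, and Fos was dim and 2.40-fold lower (1.53-fold with normexp). Jun and Junb, counted above, completed the 6. Of the NFAT genes of activated T cells, Nfatc2 lay within 2-fold. Nfatc1 was 1.59-fold higher with IFNgamma by its brighter probe and 2.36-fold higher by the other (601 against 254). Rel was not well above background.

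Many cytokine RNAs carry elements, AU-rich ones among them, that proteins bind to control their decay. All 12 measured genes for such proteins lay within 2-fold, with a median of -0.07, while 12.6% of all measured genes lay outside it. Zfp36 (tristetraprolin) read 777 against 825 and Zc3h12a (Regnase-1) 94.2 against 139.

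The other helper cytokines place these values. Of 8 measured, 3 were at least 2-fold lower, namely Il17f (80.9-fold, and 22.6-fold with normexp), Il4 (21.4-fold) and Il9 (10.5-fold). At least 2-fold higher were 3, namely Tnf (3.18-fold), Lta (2.31-fold) and Ifng (2.11-fold). The shares of all measured genes that far apart were 7.42% lower and 5.15% higher. The 11.9-fold difference of Il10 was close in size to that of Il9, the hallmark cytokine of Th9 cells. The second Ifng probe gave 1.95-fold, just inside the limit. Another 4 genes were above background without IFNgamma only, and their bounds were at least 13.3-fold for Il1rn, 8.05-fold for Il5, 5.12-fold for Il21 and 2.08-fold for Il22. With normexp those bounds were 3.09-fold, 2.33-fold, 1.82-fold and 1.39-fold. The other probe of Il1rn (2.26 with IFNgamma and 2.57 without) and that of Il22 (2.31 and 4.84) were well above background on neither array.

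**Figure D5:**
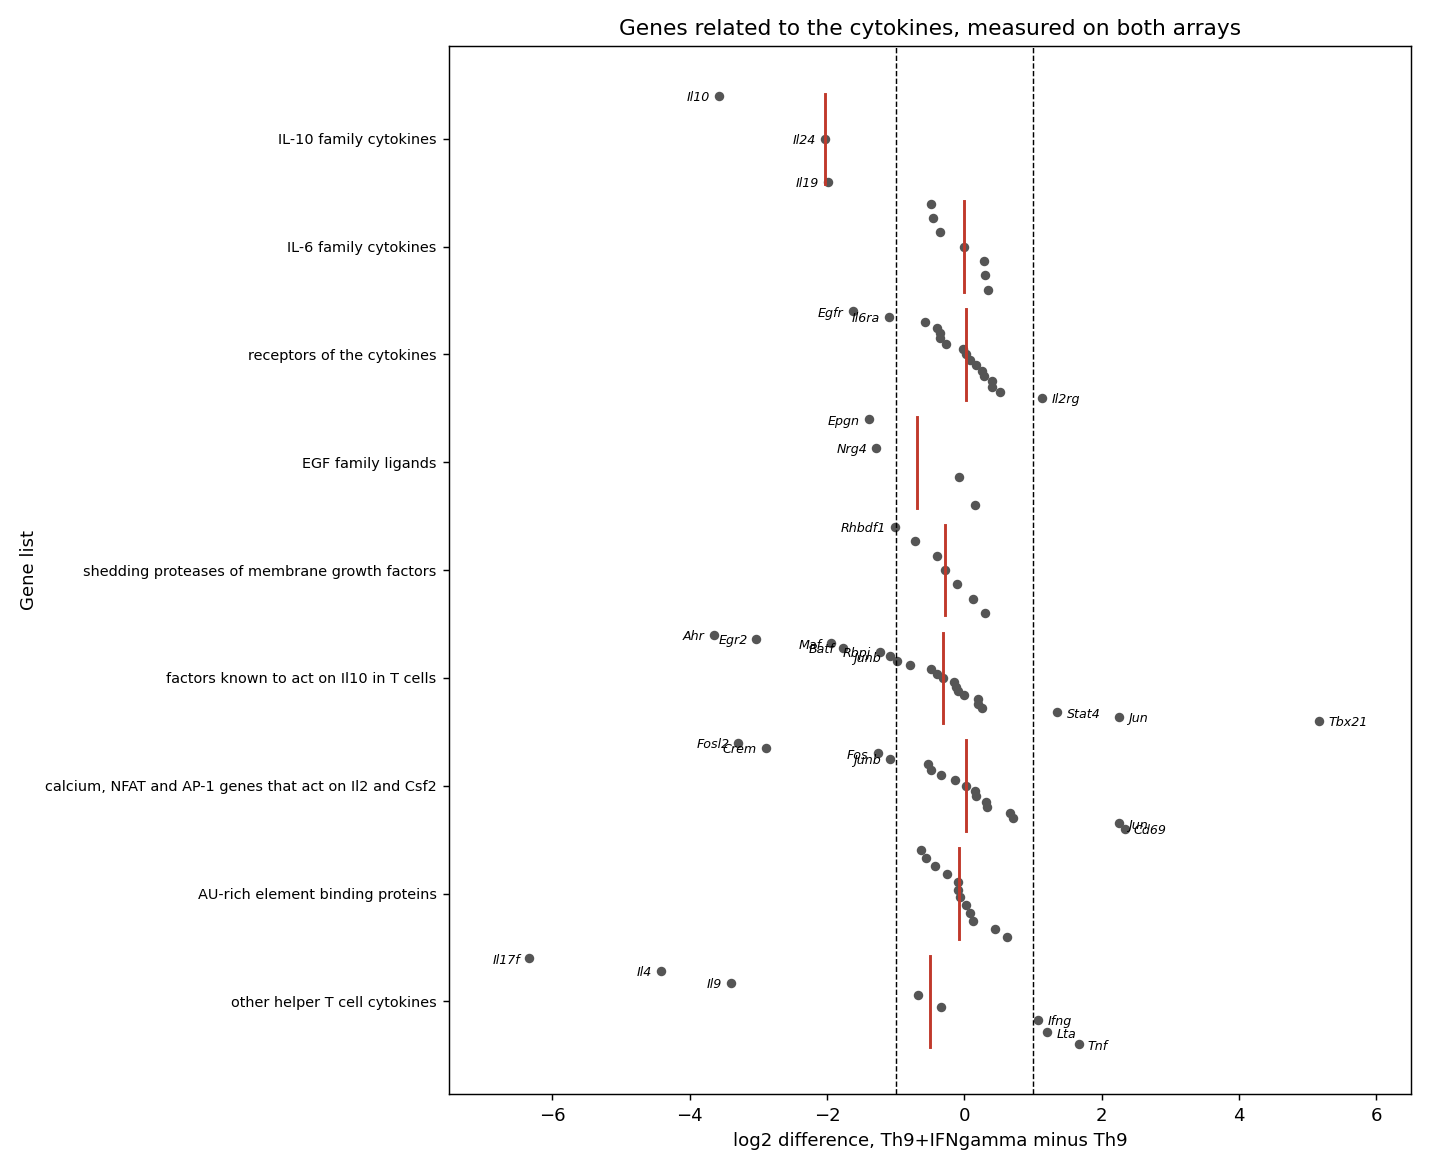
log2 difference (Th9+IFNgamma minus Th9) of each measured gene in 9 lists related to the cytokines, with red bars at list medians, dashed lines at 2-fold and names for genes at least 2-fold apart. All 3 IL-10 family genes lie left of the lower line. All 12 genes of the list labelled AU-rich element binding proteins, not all of which bind such elements, lie between the lines.

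Other spleen cells can also make several of these cytokines, so their markers were read beside them. Sums over a marker list add signals of different probes, dim ones included, and serve only to set the arrays side by side. Of 9 myeloid markers with a probe, Lyz2, Itgam, S100a8, S100a9 and Fcgr1 were well above background on neither array, and the summed signal of the list was 125 with IFNgamma and 295 without. Csf1r, Cd14 and Mpo read between 21.3 and 37.8 on either array. Adgre1 was well above background on both arrays by its brighter probe (25.8 against 186, 7.19-fold, and 2.74-fold with normexp). The other Adgre1 probe was so on neither array (2.25 and 3.41). By the brighter probe Adgre1 was lower with IFNgamma like Il10 and Csf1, and its part in their difference was not tested.

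Of 7 B cell markers, Pax5 and Blk were well above background on neither array, Cd79b read 844 against 1187, and the list summed to 941 against 1467. Cd22 was above background without IFNgamma only, at least 13.3-fold apart (3.28-fold with normexp). The other Cd22 probe was well above background on neither array (2.35 and 5.12). Dendritic cell markers summed to 3421 against 28740. Batf3, which activated T cells also express, read 3267 against 28569, and Itgax and Siglech were well above background on neither array. Basophil and mast cell markers summed to 83.1 against 68.2. Of these Fcer1a was dim and 2.22-fold higher with IFNgamma (59.2 against 26.7, and 1.28-fold with normexp). Prss34 was above background without IFNgamma only, and Cpa3, Mcpt8 and Ms4a2 on neither array. NK cell markers summed to 8103 against 1273. Nkg7 and Eomes, which Th1 and CD8 T cells express too, were 5.20-fold and 28.2-fold higher, and Ncr1 was not above background. Klrk1 was 1.41-fold higher (128 against 90.5), while Klrb1c was dim and went the other way, 1.92-fold lower with IFNgamma (20.5 against 39.2). The innate lymphoid type 2 list summed to 5178 against 6895, with a median log2 difference of -0.99. In it Rora was 4.06-fold lower with IFNgamma (147 against 597) and Gata3 was 1.24-fold lower. Il1rl1 was 1.99-fold lower by its brightest probe (1.40-fold with normexp), and its other probes were well above background on neither array. Il17rb was above background without IFNgamma only (at least 1.97-fold, or 1.38-fold with normexp). Cd8a read 1338 against 1074. The part of these cells in the cytokine values was not tested.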

How the data were processed

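The deposited intensity values are processed signals that the authors' Agilent Feature Extraction software (10.7.3.1, per the file headers) had background-subtracted and detrended within each array, without scaling between arrays. The authors' second table, log2 values per probe, equalled log2 of the median processed signal minus a constant per array, and it served as an alternative. Here log2 signals were averaged over a probe's spots without outlier flags and the 75th percentile of each array was subtracted (631.9 and 567.0). The scaled signals were set back to a common 598.6. A probe with several spots counts as well above background if more of them are flagged so than not. A gene takes its brightest probe measured on both arrays. For a gene above background on 1 array, a bound is the bright signal over the dim array's detection level, or over the dim probe itself where that is brighter. RefSeq accessions (GRCm38.p6 table) named 27050 of 41171 probes used. The array headers name mm9, so no array coordinates are given. No spot was saturated.

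The array number limits the precision, and no p-value is given. The alternative called normexp used limma 3.58.1 with an offset of 50, on the median spot and background signals, since no mean signal column was present. The 9 related gene lists, 8 marker lists and the rule for named genes (all members, all list genes at least 2-fold apart, the 5 genes nearest Il10 and the measured neighbours) were chosen with earlier results of these data known. Genes within 2-fold that are named beside them were chosen after their values were seen. The code was tested on simulated data.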

Additional observations from a re-analysis of the deposited data

How the results depend on the processing

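Of 206 values recomputed under 11 alternatives, 188 moved by less than the software error or, for counts, by at most 1.5 times, and no value at least 2-fold apart changed direction. Some of the 188 could not move. For a measured gene with 1 probe, the alternatives that choose or average probes or drop the filter return the reported value. The authors' table and the median over spots nearly repeat the reported calculation. The tally is therefore no measure of robustness. Il10, Il24 and Csf1 stayed at least 2-fold lower under every alternative. With normexp, which includes an offset of 50 whose share was not separated, the log2 difference was -3.32 for Il10, -1.11 for Csf1 and 0.24 for Il3, and 582 of all genes were at least 2-fold lower. With normexp 0 EGF family ligands and 0 shedding protease genes were 2-fold apart. The latter count was also 0 with median scaling, quantile normalization, loess and signals of at least 100, the last of which left 1 EGF family gene. With median scaling, which shifts the median of all genes to 0.11, and with quantile normalization, 1 member, Il3, was at least 2-fold higher. Median scaling gave 776 lower and 772 higher genes. Without a filter on dim probes 1788 genes were lower and 1205 higher. Of the members, 4 were then lower, with Il2 added by a probe below background on both arrays, and 1 (Csf2) was higher. In that setting 1 IL-6 family gene (Ctf1) and 10 other helper cytokine genes were 2-fold apart. The minimum of 100 left no value for Il3. No paired analysis was possible because each condition has 1 array. Levels below 11.1 (Th9+IFNgamma) and 12.6 (Th9) cannot be read, which limits Csf2, Il2, Il6 and Areg.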
